A study of Mus musculus with 3 samples.

Results

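Gene expression at passage P2 was compared with passage P0 in KH2 cells, a mouse embryonic stem cell line, which carried an inducible knockout of Pold3. Every gene that reached FPKM 1 at P0, at P2 or at both entered the comparison. FPKM, the unit of the deposited table, is the number of sequenced fragments scaled by gene length and library size. Of 50043 gene IDs in the table, 13472 met this rule, and 11968 of them reached an FPKM of 1 in both libraries. The P0 group and the P2 group held 1 library each, and the single library of passage P1 is quoted beside named genes. All 3 libraries came from the same line with the inducible Pold3 knockout. Whether the allele was intact or deleted in each library was not tested. The labels name no inducing agent and leave unsaid whether P0 was taken before or after induction and whether the passages follow 1 culture. A line without the knockout that was carried through the same passages was not analysed here, so time in culture and loss of Pold3 cannot be told apart. With 1 library per passage no difference could be set against replicates, and p-values are not given. In these bulk samples, fewer cells of a type and less RNA per cell cannot be told apart.

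POLD3 is an accessory subunit of DNA polymerase delta, which copies the lagging strand and is held on DNA by the sliding clamp PCNA. Cells that replicate DNA under stress can activate the transcription factor p53, which switches on genes for cell cycle arrest, repair, cell death and metabolism. ATF4 is a transcription factor made when protein synthesis is restrained, and it drives genes for amino acid synthesis, amino acid import and the charging of transfer RNA.

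Differences are given as log2(FPKM + 1) at P2 minus log2(FPKM + 1) at P0. The added 1 makes changes of weakly expressed genes look smaller than they are. A gene is said to have risen or fallen where this difference was at least 1 in size. A gene under FPKM 1 at P0 entered only because P2 was higher, so the counts of a list that holds such genes favour rises. Ratios are of FPKM itself, with exact 95% intervals computed from recovered read counts that cover counting error only. The P0, P1 and P2 libraries held 23213528, 18059914 and 22405670 reads. The mitochondrially encoded genes took 0.861%, 1.02% and 0.916% of summed FPKM at P0, P1 and P2. All 34 core and naive pluripotency genes of the list used below had an FPKM of at least 1 at both P0 and P2. Pou5f1, the core pluripotency factor, measured 712, 746 and 670.3 FPKM at P0, P1 and P2, and Nanog, another core factor, measured 179, 165 and 239.6 FPKM. Fibroblast markers, checked because stem cells can be grown on feeder fibroblasts, summed to 219.7, 230.7 and 209.5 FPKM, most of it from fibronectin (Fn1), which embryonic cells also make, at 189, 143 and 110.0 FPKM. Without Fn1 the other 19 summed to 30.8, 87.8 and 99.5 FPKM, 3.23-fold higher at P2 than at P0. Of all 20 markers, Postn and S100a4 were at 0 in every library, and Dcn measured 0.0468, 0.181 and 0.0243 FPKM. The 15 blood cell markers summed to 97.4, 212 and 240.0 FPKM, nearly all from the lysosomal genes Laptm5 and Cd68. Of their defining genes, Tyrobp was at 0 throughout and Ptprc measured 0.0741, 0.324 and 0.154 FPKM.

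Pold3 itself measured 49.2, 13.03 and 11.6 FPKM in the P0, P1 and P2 libraries, from 1389, 286 and 317 reads. Both later libraries were below P0, and the level at P2 was 4.23-fold lower (interval 3.74 to 4.79). The other genes that work beside it on the lagging strand did not follow. In a list of 17 genes for polymerase delta, its clamp, its clamp loader and the enzymes that finish Okazaki fragments, Pold3 was the 1 member that fell, and none rose; over all genes compared 6.72% rose and 1.16% fell, or 7.88% in either direction. The median difference of the list was 0.23, against 0.07 over all genes. Pold1, the catalytic subunit, measured 119, 137 and 141 FPKM, so P2 stood 1.19-fold above P0 (interval 1.14 to 1.24). Pold2, the second structural subunit, measured 235, 202 and 210.0 FPKM. Pold4, the smallest subunit, was low at 1.80, 4.02 and 3.63 FPKM, and its ratio of 2.02 (interval 1.35 to 3.07) rested on 38 and 74 reads. PCNA transcripts stood at 559.8, 614 and 655 FPKM. The clamp loader subunit Rfc2 moved from 76.7 through 101 to 115 FPKM. Among 43 other genes of the replication fork and its origins, 0 rose and 0 fell, with a median of 0.18. In a list of 39 compared checkpoint and fork repair genes, the translesion polymerase gene Polk was the 1 that rose, from 4.34 through 7.86 to 11.2 FPKM, and the median was 0.01. Fen1, the flap nuclease of Okazaki fragments, is listed at 0.903, 0.889 and 1.25 FPKM. It was the lowest of the 17 in every library, and the labels do not state how reads from overlapping genes were assigned.

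Between P0 and P2, 905 of the 13472 genes (6.72%) rose and 156 (1.16%) fell, while 12411 (92.1%) did neither. Rises made up 85.3% of the changed genes. Quantile normalization, which gives both libraries the same distribution of values, left 623 higher and 253 lower, a share of 71.1%, and it shifted the median of all genes by -0.11. The middle of the distribution moved little, with a median difference of 0.07 and quartiles of -0.16 and 0.37. The upper tail was the longer one. A difference of 2 or more was reached by 92 genes upwards and 9 downwards. Among genes with an FPKM of at least 1 in both libraries, 532 rose and 91 fell. The counting interval lay wholly above a ratio of 1 for 882 of the 905 genes that rose, and wholly below it for 109 of the 156 that fell.

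**Figure D1:**
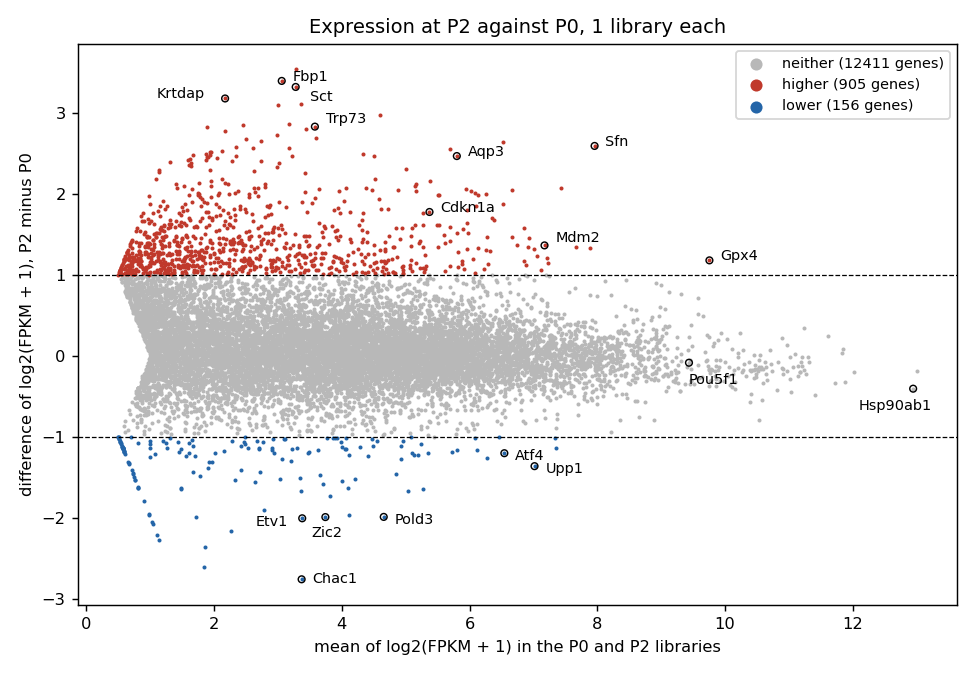
Each point is 1 of 13472 genes, with the mean of log2(FPKM + 1) in the P0 and P2 libraries on the x axis and the difference, P2 minus P0, on the y axis; dashed lines mark differences of 1 and -1. The 905 genes that rose reach higher than the 156 that fell reach low, and Sfn and Gpx4 rose at high expression while Chac1 and Pold3 are among the lowest points.

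Many of the rises started from very low levels. Going from P0 to P2, 1169 genes crossed an FPKM of 1 upwards, 860 of them protein-coding, and 335 crossed it downwards, 148 of them protein-coding. Under a stricter form, 89 genes went from under 0.1 to at least 1 FPKM and 45 went the other way. Protein-coding genes numbered 40 of those 89 and 1 of those 45. From under 1 FPKM at P0, 37 genes reached at least 5 at P2, and 3 made the reverse move. The share of genes that rose was 9.91% among genes whose larger FPKM lay between 1 and 5 and 2.82% among those over 100. The share that fell went from 1.74% to 0.481% across the same classes. The median difference was 0.20 in the lowest class and -0.02 in the highest. Of protein-coding genes split into 3 equal groups by length, 6.99% of the shortest (up to 1417 bases) and 5.53% of the longest (over 2340 bases) rose.

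Gene classes differed in direction. Of 12218 protein-coding genes, 759 rose and 73 fell. Long noncoding genes had 55 of 443 higher and 7 lower. The snoRNA genes, whose short products guide chemical modification of ribosomal RNA, went the other way, with 3 of 93 higher and 31 lower. They rested on 1129 reads at P0 and 593 at P2 in all, a median of 5 and 4 reads a gene. Of 58 microRNA genes 11 rose and 24 fell, at a median of 3 and 2 reads a gene. Counting error is therefore large for both short RNA classes, and the labels do not state how far short RNA was kept in these libraries. The authors' own gene models, which carry no Ensembl ID, had 31 of 192 higher and 1 lower.

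**Figure D2:**
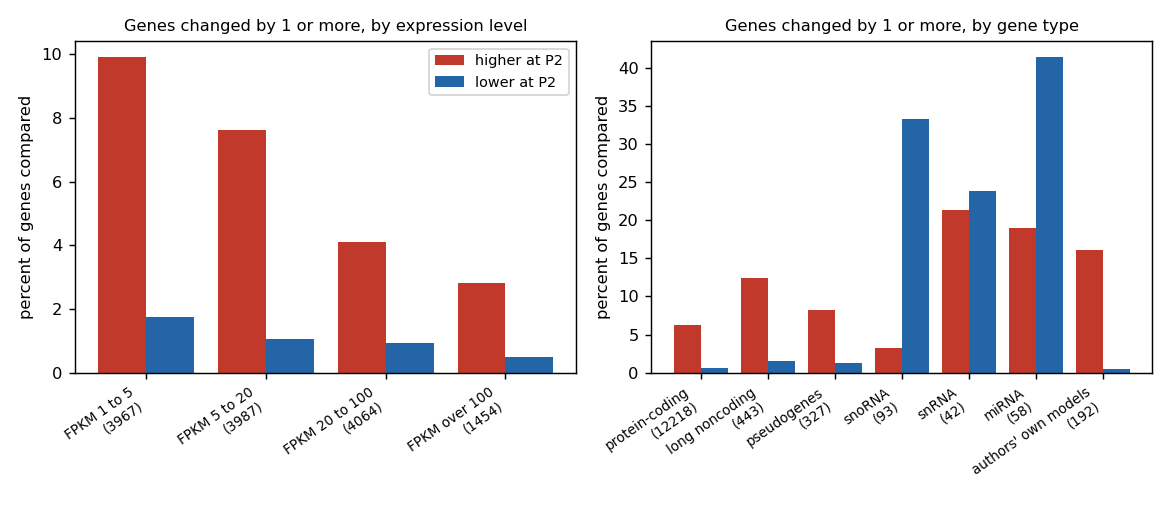
Bars give the percentage of genes compared that rose (red) or fell (blue) by at least 1 in log2(FPKM + 1), by the larger FPKM of the 2 libraries (left) and by gene type (right), with the number of genes in parentheses. Rises outnumbered falls in every expression class, while snoRNA, snRNA and microRNA genes had more falls than rises.

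The 25 largest rises under the naming rule started between 0.397 and 100.3 FPKM at P0. Fbp1, which encodes fructose-1,6-bisphosphatase of gluconeogenesis, measured 1.57, 12.2 and 26.0 FPKM in the P0, P1 and P2 libraries. It was 16.5-fold higher at P2 than at P0 (interval 11.7 to 24.1), behind the ratios of Krtdap (25.1) and Ms4a10 (22.5). The Fbp1 difference in log2(FPKM + 1), 3.39, was the largest under the naming rule. Fbp2, the muscle form of the same enzyme and its neighbour on chromosome 13, measured 2.34, 12.8 and 23.2 FPKM. Sct, the gene for the gut hormone secretin, went from 2.07 through 12.7 to 29.6 FPKM. Ccno, a cyclin O gene known from cells with many cilia, stood at 1.75, 10.01 and 22.4 FPKM. In all of these the P1 library lay between the other two. Slc5a5, the sodium-iodide symporter of the thyroid, measured 1.03, 7.51 and 13.6 FPKM (13.2-fold, interval 10.4 to 17.1). Gcm1, a transcription factor of the placental labyrinth, measured 0.542, 2.97 and 7.68 FPKM (14.2-fold, interval 9.52 to 22.0). Col2a1, the cartilage collagen gene, went from 3.77 through 20.8 to 29.8 FPKM. Igf2, the imprinted fetal growth factor gene, stood at 2.71, 14.2 and 20.9 FPKM. Gpat3, which encodes an acyltransferase of triglyceride synthesis, measured 0.621, 3.28 and 8.30 FPKM. Its ratio of 13.4 had an interval of 9.09 to 20.4. Aqp3, a channel for water and glycerol, differed from these in its course, as it measured 22.7 FPKM at P0, 28.2 at P1 and 129.9 at P2, so that P1 lay close to P0. AU015836, an X-linked gene, was already at 7.63 FPKM at P0 and reached 36.3 and 66.9 FPKM.

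Among the 25 largest falls under the naming rule were Pold3 itself and genes of several kinds. Chac1, which encodes an enzyme that breaks down glutathione, measured 25.9, 6.56 and 2.97 FPKM from 985, 194 and 109 reads. It was 8.72-fold lower at P2 (interval 7.15 to 10.7), the largest fall under the naming rule. Etv1, an ETS transcription factor gene downstream of FGF and ERK signals, measured 19.9, 8.65 and 4.19 FPKM (4.74-fold lower, interval 4.02 to 5.62). Zic2, a zinc finger regulator of the epiblast and neural plate, stood at 25.7, 8.84 and 5.71 FPKM, and its neighbour Zic5 at 17.2, 6.03 and 4.73 FPKM. Most of the Zic2 difference was present by P1. H2afy2, the gene for the histone variant macroH2A2, measured 24.5, 8.02 and 6.71 FPKM. H1f0, a linker histone gene, measured 26.4, 8.45 and 8.39 FPKM. Both reached a level at P1 that was close to that at P2. Cnpy1, known for its part in FGF signalling, measured 21.6, 14.9 and 6.55 FPKM. Fzd5, a Wnt receptor gene, stood at 30.2, 13.5 and 9.87 FPKM. Upp1, the uridine phosphorylase gene, was the most abundant of the 25 largest falls at 207, 85.8 and 79.7 FPKM (2.59-fold lower, interval 2.44 to 2.76). Ntn1, the gene for the guidance factor netrin-1, measured 52.8, 36.6 and 22.0 FPKM.

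**Figure D3:**
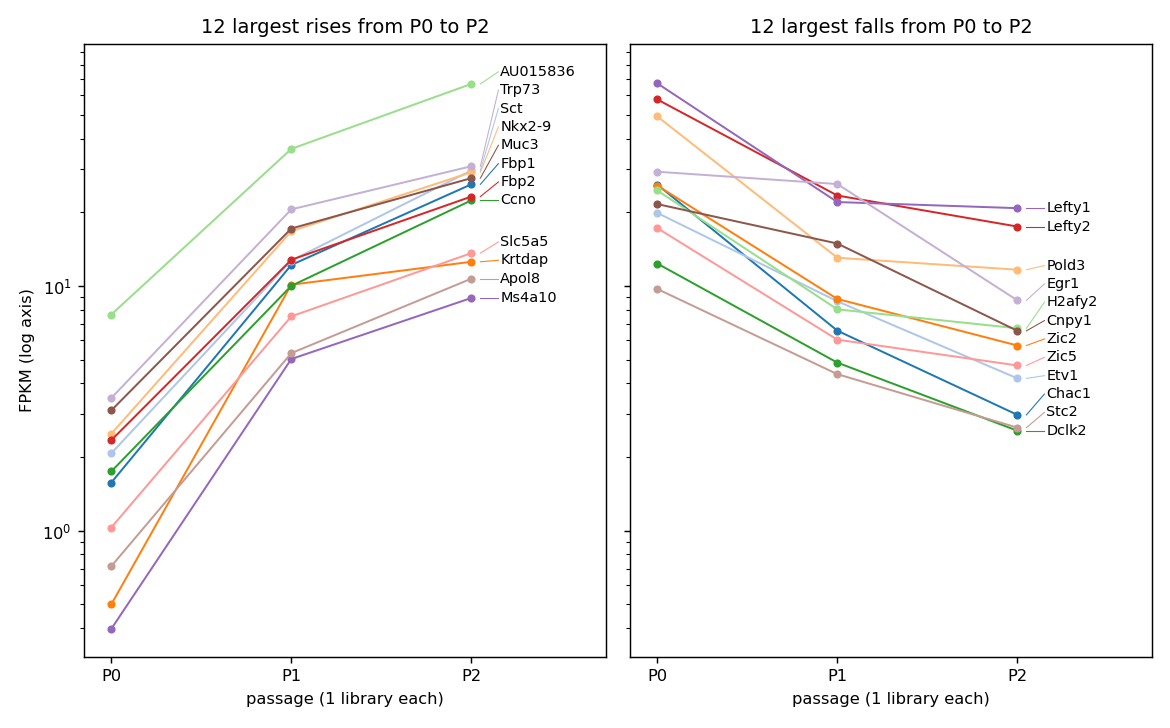
FPKM on a log axis in the P0, P1 and P2 libraries, 1 each, for the 12 genes with the largest rises (left) and the 12 with the largest falls (right) under the naming rule; lines only join the 3 values of a gene. All 12 rising genes had P1 between P0 and P2, and Egr1 and Cnpy1 fell mainly after P1.

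Genes known as p53 targets rose in all 3 lists used, and none fell in any of them. Over all genes compared 6.72% rose, with a median of 0.07. Some p53 targets are also counted in other lists. Sfn and Perp are in the epithelial list, Polk in the checkpoint list and Tap1 in the antigen presentation list, and Zmat3 is in more than 1 p53 list. Of 28 arrest and repair targets 13 rose, with a median of 0.93. Trp73, a p53 family gene, measured 3.48, 20.5 and 30.8 FPKM. Sfn, the gene for 14-3-3 sigma, which holds cells before mitosis, measured 100.3, 465 and 608 FPKM from 3754, 13548 and 21991 reads (6.07-fold, interval 5.86 to 6.28). Btg2, an antiproliferative gene, measured 13.3, 46.6 and 70.1 FPKM. The polo-like kinase gene Plk2 measured 16.1, 54.5 and 72.1 FPKM. Cdkn1a, the gene for the cell cycle inhibitor p21, measured 21.4, 63.6 and 75.6 FPKM (3.53-fold, interval 3.22 to 3.88). Trp53 itself did not pass the threshold, at 267, 261 and 269 FPKM. Of 16 compared cell death targets 4 rose, with a median of 0.61; 1 of them, the death receptor gene Tnfrsf10b, no longer passed the threshold under median-of-ratios scaling (0.96) or quantile normalization (0.94). Perp, which encodes a membrane protein of desmosomes and death signalling, measured 33.0, 108 and 135 FPKM, and Apaf1, the apoptosome scaffold, 20.3, 46.2 and 53.6 FPKM. Fas, another death receptor gene, measured 0.422, 2.55 and 2.97 FPKM from 10, 47 and 68 reads. It entered through P2 only, and of the 14 cell death targets at FPKM 1 or more at P0, 3 rose. The direct killers were nearer to P0. Bax measured 257, 277 and 275 FPKM and Bbc3, the gene for PUMA, 77.9, 113 and 110.2 FPKM, neither past the threshold. Of 23 compared targets in metabolism and transport 11 rose, with a median of 0.99. Of these rises 1 (Ces2e) entered through P2 only, and of the other 22 targets 10 rose. Abcb1b, a drug efflux pump gene, measured 20.4, 106 and 125 FPKM. Its near copy Abcb1a, with which it could share reads, measured 5.03, 7.80 and 8.21 FPKM and did not pass the threshold. Dcxr, a xylulose reductase gene, measured 18.8, 64.5 and 87.2 FPKM, and Ephx1, an epoxide hydrolase gene, 9.21, 29.0 and 41.8 FPKM.

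Promoter windows from RefSeq, 250 bases before to 50 after each gene start on GRCm38.p6, were matched by symbol to 9905 of the compared genes. The strict p53 response element, a pair of cores at most 13 bases apart, stood in 3 of 613 genes that rose, in 0 of 50 that fell and in 7 of all 9905 (0.0707%), against 0.0731% of all 32851 windows in the table. Cdkn1a was the 1 member of the p53 lists that held it, and its match is shown because it lies beside one of the p53 targets named above. Coordinates here and below are those of the RefSeq table, not of the build used for the files, sequences are written on the strand of the gene, and capitals mark the match from the start of the first core to the end of the last.
Cdkn1a, chr17:29090890-29090953, plus strand: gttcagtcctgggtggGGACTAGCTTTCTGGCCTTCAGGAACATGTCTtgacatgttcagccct
A match is a description of the letters, not a site or a cause. Many p53 sites are known to lie outside such short windows.

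Genes of the ATF4 program moved the other way. Of 31 compared members 9 fell (29%) and 2 rose (6.45%), beside 1.16% and 6.72% of all genes compared. The list had a median of -0.31 and a summed level of 3504, 2861 and 2659 FPKM at P0, P1 and P2. Atf4 measured 141, 82.9 and 60.5 FPKM (2.33-fold lower at P2, interval 2.20 to 2.46). Its targets Mthfd2, a mitochondrial folate enzyme gene, and Gpt2, a mitochondrial alanine transaminase gene, measured 119, 62.8 and 49.2 FPKM and 46.3, 27.4 and 18.5 FPKM. In each of these 3 genes the value at P1 lay between the others. Aldh18a1 and Pycr1, which act in proline synthesis, fell as well. Aldh18a1 measured 82.9, 45.3 and 36.3 FPKM and Pycr1 measured 25.5, 14.9 and 10.4 FPKM. The stress pseudokinase gene Trib3 measured 51.2, 25.1 and 21.7 FPKM. Stc2, the gene for the secreted stanniocalcin-2, measured 9.72, 4.36 and 2.64 FPKM. Outside the list, Pck2, which makes phosphoenolpyruvate in mitochondria, measured 16.1, 9.17 and 4.99 FPKM (3.23-fold lower, interval 2.88 to 3.64). The 2 members that rose were Ddit4 and Atf3. Ddit4, an inhibitor of mTOR signalling that is also in a p53 list, measured 37.3, 107 and 152 FPKM, and Atf3 measured 2.82, 8.78 and 10.5 FPKM. Serine synthesis genes were lower without reaching the threshold, with Psat1 at 410.2, 267 and 213 FPKM and Phgdh at 234.5, 207 and 193 FPKM.

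Many transfer RNA synthetases are known ATF4 targets. None of the 20 cytosolic members rose or fell, while their median was -0.42 and their summed level went from 4128 through 3635 to 3327 FPKM. The tyrosine enzyme gene Yars measured 216, 153 and 125 FPKM (1.72-fold lower, interval 1.65 to 1.80), and the threonine enzyme gene Tars 104, 77.3 and 65.2 FPKM. Only Qars, Rars, Kars and Hars among the 20 were not lower at P2 than at P0. The endoplasmic reticulum branch did not share this direction. Of 23 genes of the unfolded protein response 1 fell and 0 rose, with a median of 0.22. Hspa5, its main chaperone gene, measured 434, 604 and 647 FPKM, and Pdia3, a disulfide isomerase gene, 423, 641 and 729 FPKM. The member that fell was Herpud1, which helps to clear misfolded protein, at 23.9, 12.1 and 10.2 FPKM. Ddit3, the gene for the stress factor CHOP, measured 4.62, 4.25 and 5.39 FPKM.

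**Figure D4:**
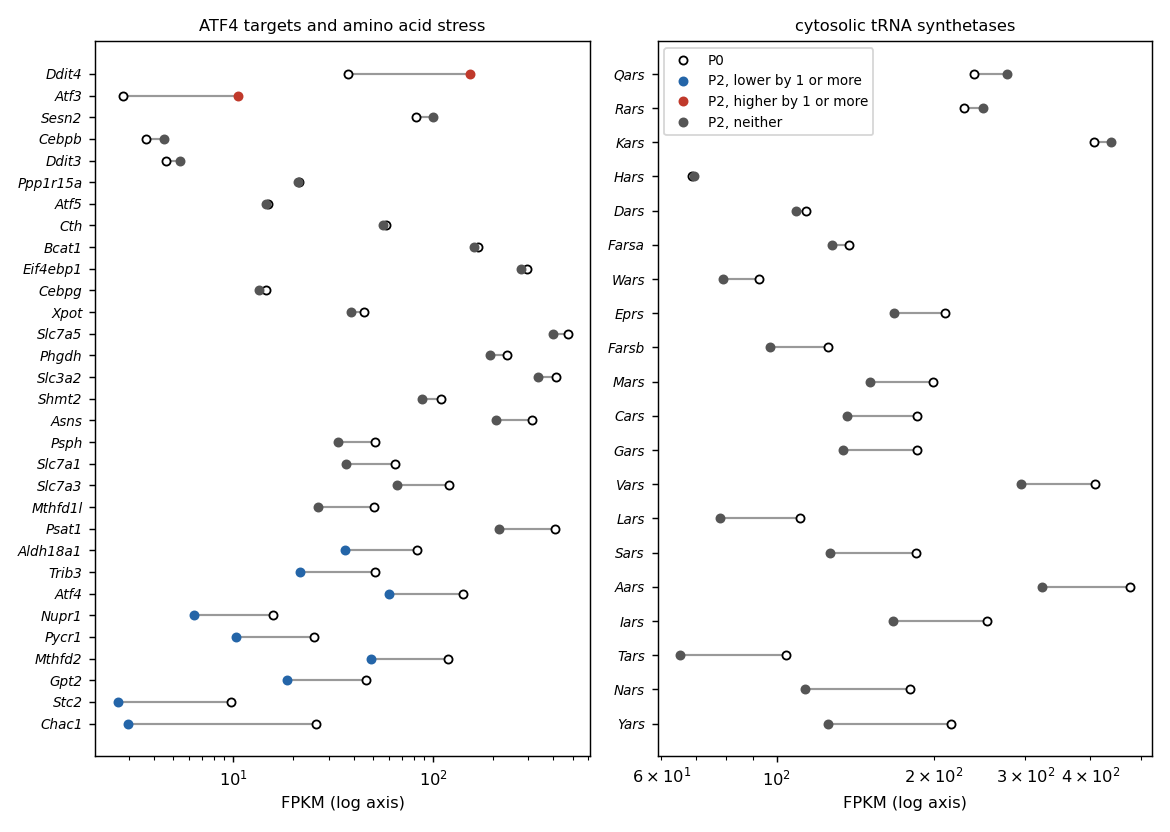
FPKM on a log axis at P0 (open circles) and P2 (filled circles, coloured by whether the gene fell, rose or did neither) for 31 compared members of the ATF4 list (left) and 20 cytosolic tRNA synthetase genes (right), ordered by their difference. Of the ATF4 list 9 genes fell, among them Chac1 and Atf4, while Ddit4 and Atf3 rose; 16 of the 20 synthetase genes lay lower at P2 without passing the threshold.

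The element bound by ATF4 with a C/EBP partner, searched as TGATGNAAN (N is any base) on both strands, was present in 8 of the 50 genes that fell and had a promoter window (16%). It was present in 26 of 613 that rose (4.24%), in 261 of all 9905 compared (2.64%) and in 3.95% of all windows. In the ATF4 list 6 of 27 members with a window held it (22.2%), and among the synthetases 5 of 12 (41.7%). The 8 genes that fell and held it were Chac1, Eef2k, Herpud1, Nupr1, Pck2, Pycr1, Slc1a4 and Trib3. Of these, 6 matches lie wholly before the gene start. They are shown with 16 bases on each side as examples from genes that fell, and capitals mark the 9 matched bases.
Chac1, chr2:119351032-119351072, plus strand: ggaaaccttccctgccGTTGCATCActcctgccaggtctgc
Herpud1, chr8:94386300-94386340, plus strand: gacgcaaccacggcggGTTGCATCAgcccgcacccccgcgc
Nupr1, chr7:126625557-126625597, minus strand: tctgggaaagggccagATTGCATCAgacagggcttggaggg
Pck2, chr14:55540146-55540186, plus strand: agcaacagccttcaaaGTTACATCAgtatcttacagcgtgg
Pycr1, chr11:120643827-120643867, minus strand: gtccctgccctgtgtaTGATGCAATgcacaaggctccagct
Eef2k, chr7:120851088-120851128, plus strand: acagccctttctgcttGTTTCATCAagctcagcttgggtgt
Pycr1 is shown with the element in the forward direction, and the other 5 hold it on the opposite strand. Nupr1, a small stress-induced chromatin protein gene, measured 15.8, 6.99 and 6.35 FPKM, and Eef2k, the kinase that slows translation elongation, 12.9, 9.35 and 5.27 FPKM.

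The same letters also stood upstream of genes that did not fall, and 4 of these are shown for comparison, with flanks cut at the gene start in Tars. Aars and Tars, synthetase genes, lay lower at P2 by 0.56 and 0.67 on the log2 scale without passing the threshold, whereas Atf3 and Sfn rose.
Aars, chr8:111033713-111033753, plus strand: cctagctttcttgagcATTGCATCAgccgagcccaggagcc
Tars, chr15:11399659-11399690, minus strand: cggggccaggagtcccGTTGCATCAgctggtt
Atf3, chr1:191183420-191183460, minus strand: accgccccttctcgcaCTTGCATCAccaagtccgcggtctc
Sfn, chr4:133602251-133602291, minus strand: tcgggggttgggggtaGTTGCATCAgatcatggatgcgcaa
The 9 matched bases of Tars and Sfn are those of Chac1 and Herpud1, although Sfn rose, Tars did not pass the threshold and the other two fell. The cyclic AMP response element TGACGTCA (no run of bases matches both it and the ATF4 element) was present in 1.96% of the genes that rose, 2% of those that fell and 3.67% of all compared. The E2F site, searched as TTTCGCGC or TTTGGCGC, stood in 1.63%, 0% and 1.88% of the same groups.

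Signals that pattern the early embryo changed in both directions. Of 30 compared Nodal, Wnt and BMP genes 11 rose and 2 fell (against 6.72% and 1.16% over all genes), with a median of 0.37. Of these, Cdx2, Wnt3, Wnt4, Wnt7b and Wnt8a entered through P2 only and all 5 rose, and of the 25 at FPKM 1 or more at P0, 6 rose. Nodal, the TGF-beta family ligand of the epiblast, measured 35.2, 82.4 and 129.7 FPKM, a 3.68-fold rise (interval 3.49 to 3.89). Lefty1 and Lefty2, which encode inhibitors that Nodal normally induces, are near copies that could share reads. They were the 2 members that fell, Lefty1 from 67.2 through 22.0 to 20.8 FPKM and Lefty2 from 57.8 through 23.4 to 17.5 FPKM. Nodal and its inhibitors lay on opposite sides of P0 in both later libraries. Wnt ligand genes rose from low levels. Wnt6 measured 1.09, 6.37 and 7.46 FPKM and Wnt3, the ligand of the primitive streak, 0.672, 3.37 and 5.72 FPKM. Wnt4 and Wnt7b reached 2.64 and 2.79 FPKM from 0.277 and 0.377. The BMP-responsive genes Id1 and Id3, which encode inhibitors of differentiation factors, measured 65.9, 175 and 198 FPKM and 34.3, 85.3 and 139 FPKM. With a floor of FPKM 5 in place of 1, 7 rather than 11 members counted as higher.

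Notch and Hedgehog genes had 6 of 22 compared members higher and 2 lower, beside 6.72% and 1.16% of all genes compared. Dhh, Nkx2-2 and Nrarp entered through P2 only, with 2 of the 6 rises. Of the 19 members at FPKM 1 or more at P0, 4 rose. The receptor gene Notch3 measured 11.9, 29.5 and 33.2 FPKM and the ligand gene Dll1 1.40, 3.94 and 5.97 FPKM. Nkx2-9, a homeobox gene that Hedgehog signals induce in the neural tube, measured 2.49, 16.7 and 29.1 FPKM (11.7-fold, interval 9.21 to 15.1). The Hedgehog effector Gli2 fell from 43.8 through 20.5 to 19.7 FPKM. Among 29 compared immediate early and ERK response genes 4 rose and 2 fell, with a median of 0.15. Egr1, induced within minutes of ERK activation, measured 29.3, 26.1 and 8.72 FPKM, so its fall came after P1. The AP-1 genes Fosl1 and Jun rose. Fosl1 measured 2.09, 10.4 and 11.6 FPKM and Jun 3.61, 8.61 and 11.4 FPKM. The feedback genes of the pathway (Dusp, Spry and Spred families) were among the 23 that did neither.

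Of 34 core and naive members 1 fell and 1 rose, with a median of -0.28, against 0.07 for all genes. Klf4 measured 229, 116 and 113 FPKM and Fbxo15, a target of the core factors, 37.7, 30.7 and 81.3 FPKM. Fbxo15 differed by 0.99 and no longer passed the threshold under median-of-ratios scaling, and 5 members rather than 1 counted as lower under that scaling. Members close to the threshold included parts of the LIF pathway, which keeps mouse stem cells naive. The coreceptor gene Il6st measured 34.0, 19.6 and 16.7 FPKM (2.03-fold lower, interval 1.89 to 2.19), and the receptor gene Lifr 18.9, 11.8 and 9.69 FPKM. The naive factor gene Tfcp2l1 measured 56.2, 28.3 and 27.9 FPKM, and Esrrb 221, 127 and 118 FPKM. Sox2 stood at 274, 229 and 212 FPKM. Dppa5a, a stem cell marker, went the other way at 1089, 1107 and 1322 FPKM without passing the threshold. Tet1, which oxidises methylated DNA, measured 151, 98.1 and 85.5 FPKM.

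Of 36 compared simple epithelial and epidermal genes 15 rose and 0 fell (against 6.72% and 1.16% over all genes), with a median of 0.80. Of these, 6 entered the comparison through P2 only, and among the 30 at FPKM 1 or more at P0, 11 rose. Krtdap and Sbsn, secreted epidermal genes, measured 0.499, 10.1 and 12.5 FPKM and 0.363, 5.65 and 6.09 FPKM. Their counting intervals were wide, since P0 held 4 and 11 reads, with a 25.1-fold ratio between 9.50 and 94.1 for Krtdap. The gut mucin gene Muc3 measured 3.10, 17.2 and 27.6 FPKM. Of 11 compared keratin genes 6 rose, or 3 with a floor of FPKM 5. Through P2 only entered 5 of the 11, with 4 of the 6 rises, and among the other 6 genes 2 rose. Krt13 measured 0.762, 6.58 and 8.58 FPKM and Krt5, of basal epidermis, 0.0393, 2.17 and 2.79 FPKM from 2, 86 and 137 reads. Krt8, of simple epithelium, started higher, at 21.7, 42.3 and 48.3 FPKM. Cdh1 and Epcam, adhesion genes that stem cells already express, did not pass the threshold, at 278, 331 and 324 FPKM and 117, 115 and 112 FPKM. Calcium-binding S100 and annexin genes had 7 of 15 higher and 0 lower, and 4 of the 12 at FPKM 1 or more at P0 were higher. S100a6 measured 13.5, 52.8 and 59.0 FPKM, Anxa1 9.99, 32.0 and 36.1 FPKM and Anxa8 0.391, 3.16 and 6.04 FPKM. S100a6 is also in the fibroblast list, of which 4 of 9 compared members rose (Col1a1, Thy1, Timp3 and S100a6) while the list without Fn1 summed to 3.23-fold more at P2 than at P0. The part of such cells in these differences was not tested.

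Of 14 compared trophoblast markers 9 rose and 0 fell, against 6.72% and 1.16% over all genes. Cdx2, Gata3, Hand1, Krt7 and Plac1 were among the 9 and entered through P2 only, and of the 9 markers at FPKM 1 or more at P0, 4 rose. Hand1 measured 0.827, 5.07 and 7.11 FPKM, and Gata3 0.282, 1.33 and 2.54 FPKM. Of the 9 that rose, Krt7, Krt8 and Krt19 are also in the keratin list and Cdx2 and Id2 in the signalling list. Of the listed markers, Tpbpa, of the spongiotrophoblast, and Prl3d1, a placental lactogen, were at 0 in every library. Other markers were higher at P2 than at P0. Elf5 measured 0.0274, 0.106 and 0.455 FPKM from 1, 3 and 16 reads, and Plac1 0.0410, 0.527 and 1.62 FPKM. Tfap2c, which was more abundant, measured 25.9, 30.5 and 50.9 FPKM. With a floor of FPKM 5 the number higher was 4. Of 15 blood cell markers 5 were compared and 3 rose, 2 of them lysosomal genes, Cd68 from 7.44 through 24.9 to 30.7 FPKM and Laptm5 from 86.1 through 182 to 203 FPKM. The other was Spi1, at 0.192, 0.802 and 1.39 FPKM from 4, 13 and 28 reads, which no longer passed under median-of-ratios scaling (0.97) or quantile normalization (0.81). The defining blood genes Ptprc and Tyrobp were near or at 0, as given above. The part of trophoblast or blood cells in any difference was not tested.

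In gluconeogenesis Fbp1 and Fbp2 rose and Pck2 fell among 7 compared genes. Of 31 glycolysis and hypoxia genes 2 rose and 3 fell (against 6.72% and 1.16% over all genes), with a median of -0.14. Hk2, a hexokinase gene, measured 78.9, 48.4 and 34.1 FPKM, and the phosphofructokinase gene Pfkp 61.1, 43.7 and 26.0 FPKM. Pfkp catalyses the reverse of the step run by Fbp1 and Fbp2. The 2 that rose were Ldhb and Pfkfb4, and Pfkfb4 did not pass under quantile normalization (0.84). Ldhb, the lactate dehydrogenase subunit of oxidative tissues, measured 51.8, 87.8 and 114 FPKM. Of 29 genes for glutathione, lipid peroxide defence and iron 7 rose and 1, Chac1, fell, with a median of 0.27. Gpx4, the enzyme that repairs oxidised membrane lipids, measured 573, 499 and 1298 FPKM. Its gain of 724 FPKM was the largest under the naming rule, its ratio was 2.26 (interval 2.21 to 2.32), and the P1 library lay below P0. Gpx3, a secreted glutathione peroxidase gene, measured 22.0, 66.5 and 89.8 FPKM, and Gpx2 measured 19.14, 47.5 and 60.6 FPKM. Slc40a1, the iron exporter ferroportin, measured 1.11, 10.9 and 10.2 FPKM.

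Transporters of the solute carrier family had 23 of 194 compared members higher and 3 lower, against 6.72% and 1.16% over all genes. Their median was 0.17. Of the 194, 20 entered through P2 only and 5 of these rose. Of the 174 at FPKM 1 or more at P0, 18 rose. Besides Slc5a5 and Slc40a1 the largest were Slc26a2, a sulfate carrier gene, at 8.67, 28.5 and 52.2 FPKM, and Slc4a11, a borate family carrier gene, at 16.2, 70.6 and 73.6 FPKM. All 3 that fell carry amino acids. Slc6a9, the glycine carrier gene, measured 4.001, 2.04 and 1.12 FPKM. Slc1a4, for small neutral amino acids, measured 9.80, 5.44 and 4.32 FPKM, and Slc1a3, for glutamate, 20.2, 13.6 and 9.48 FPKM. A fold of 2 in FPKM itself, in place of the log2(FPKM + 1) rule, counted 37 carriers as higher.

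Cell cycle genes that passed the threshold were inhibitors of S phase entry, and they went in both directions. Of 30 mitosis genes 0 rose and 0 fell, with a median of -0.00. Among 28 genes of G1 and S phase 4 rose and 1 fell, beside 6.72% and 1.16% of all genes. Besides Cdkn1a, Cdkn2b measured 0.526, 3.30 and 4.58 FPKM, Cdkn2a 6.11, 7.67 and 13.5 FPKM and Rb1 13.8, 27.1 and 30.9 FPKM. Of these, Cdkn2b entered through P2 only. Cdkn1b, the gene for the inhibitor p27, is an inhibitor as well and fell, from 13.5 through 6.20 to 4.89 FPKM. Mki67, a marker of cycling cells, measured 64.1, 43.5 and 40.4 FPKM, and Pttg1, the securin gene, 58.8, 69.9 and 91.0 FPKM.

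Of 26 compared germline and meiosis genes 7 rose (against 6.72% over all genes), 2 of them among 4 that entered through P2 only. The number was 4 with a floor of FPKM 5 or quantile normalization and 11 with a ratio of 2 in FPKM as the call. Tex19.1, which guards germ cells against mobile elements, measured 31.0, 84.2 and 129.8 FPKM. Of 12 compared genes of the two-cell-like state 5 rose. Only 4 of the 12 had reached FPKM 1 at P0, of which 2 rose, and the other 8 were compared because they were higher at P2. With the floor of 5 the number was 2, and with the ratio of 2 it was 12. Gm5662 measured 1.52, 1.63 and 7.52 FPKM and Usp17le 1.18, 2.46 and 5.95 FPKM. The summed level of the list was 10.05, 12.21 and 40.09 FPKM, so P1 lay close to P0. Members of these families are near copies that could share reads, so they are not taken as separate observations.

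Of 14 compared endoderm markers 5 rose and 0 fell, against 6.72% and 1.16% over all genes. The number that rose was 3 with a floor of FPKM 5 or quantile normalization. Among the 9 at FPKM 1 or more at P0, 3 rose. The basement membrane genes Col4a1 and Sparc measured 29.1, 54.4 and 78.0 FPKM and 126, 259.8 and 321 FPKM. Col4a2 and Lamb1, also of the basement membrane, were higher at P2 than at P0. Lama1 and Lamc1 went the other way, at 15.9, 11.4 and 8.73 FPKM and 250, 213 and 189 FPKM. Of 6 compared mesoderm markers 3 rose, 2 of them (Hand1 and Wnt3) among 3 that entered through P2 only, and 5 rose with a ratio of 2 as the call. Of 9 compared neuroectoderm markers 2 rose and 1 fell. The neuronal factor gene Neurod1 was higher at 2.51, 9.21 and 8.65 FPKM, and Sox11, of neural progenitors, lower at 5.997, 4.33 and 2.37 FPKM. Primed epiblast markers had 2 of 17 higher and 4 lower, with a median of -0.05, and Fgf5 among those higher entered through P2 only. Imprinted genes had 5 of 24 higher (2 with a floor of FPKM 5) and 2 lower. Among those higher was H19, a growth-restraining noncoding RNA next to Igf2, at 0.849, 2.18 and 4.57 FPKM, which entered through P2 only. Synaptic and neurosecretory genes had 1 of 18 higher and 1 lower. Of 3 compared Hox genes 1 rose, and it was among 2 that entered through P2 only.

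None of 77 mitochondrial ribosomal genes fell and 1, Mrps6, rose, though not under median-of-ratios scaling (0.93) or quantile normalization (0.94). No member passed the threshold among 38 proteasome genes (median 0.05), 80 nuclear genes of the respiratory chain (0.04), 12 mitochondrially encoded genes (0.05), 19 sterol synthesis genes (0.01), 14 DNA methylation genes (-0.11) or 27 Polycomb genes (-0.08). Zinc finger genes named Zfp had 4 of 335 higher and 1 lower, with a median of -0.05, and 11 higher with a ratio of 2 as the call. Replication-dependent histone genes had 1 of 21 lower, with a median of -0.34, and these near copies could share reads. Lysosome genes had 2 of 34 higher, antigen presentation genes 2 of 16, interferon genes 1 of 17, BCL2 family genes 1 of 20 and ABC transporter genes 2 of 24, with 0 lower in each, beside 6.72% higher over all genes. The interferon gene was Ifi35 (0.97 under median-of-ratios scaling and 0.78 under quantile normalization) and the BCL2 family gene Bad (0.91 and 0.93), and neither passed under these. Ifi35 entered through P2 only, as did 1 of the 2 rises each in the antigen presentation and ABC transporter lists. Actin and YAP or SRF target genes had 3 of 21 higher. Ccn2, a YAP target, measured 8.42, 24.1 and 25.3 FPKM, Axl 2.85, 8.92 and 7.85 FPKM and Ccn1 10.4, 23.9 and 22.8 FPKM. Ccn1 no longer passed under median-of-ratios scaling (0.96) or quantile normalization (0.97). Of 36 compared members of the snoRNA list 13 fell and 0 rose, on 624 reads at P0 and 342 at P2 in all; 6 fell with a floor of FPKM 5.

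The most abundant transcripts lay slightly lower at P2. The 100 genes highest at P0 made up 27.2% of summed FPKM there and 24.3% at P2, and 85 of them lay lower at P2, with a median difference of -0.18. Genes chosen for a high P0 value are favoured to be lower at P2, and of the 100 highest at P2, which made up 24.6% there, 75 lay lower, with a median of -0.15. The largest losses in FPKM were all within the threshold. Hsp90ab1, the constitutive HSP90 gene, measured 9072, 7532 and 6839 FPKM, a loss of 1.33-fold (interval 1.32 to 1.34). Npm1, a nucleolar chaperone gene, measured 3207, 2609.8 and 2295 FPKM, and Actg1, the gamma actin gene, 1956, 1525 and 1128 FPKM. Cytosolic ribosomal protein genes had 0 of 86 past the threshold, with a median of -0.16. Among all genes whose larger FPKM was over 100, 41 rose and 7 fell, with a median difference of -0.02. Gpx4 and Sfn were among those that rose. Ybx1, a cold shock protein gene, measured 2142, 2481 and 2711 FPKM and Hspb1, a small heat shock gene, 375, 510.1 and 688 FPKM. Ass1, which makes arginine, stood at 353, 584 and 655 FPKM, and none of these 3 passed the threshold.

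**Figure D5:**
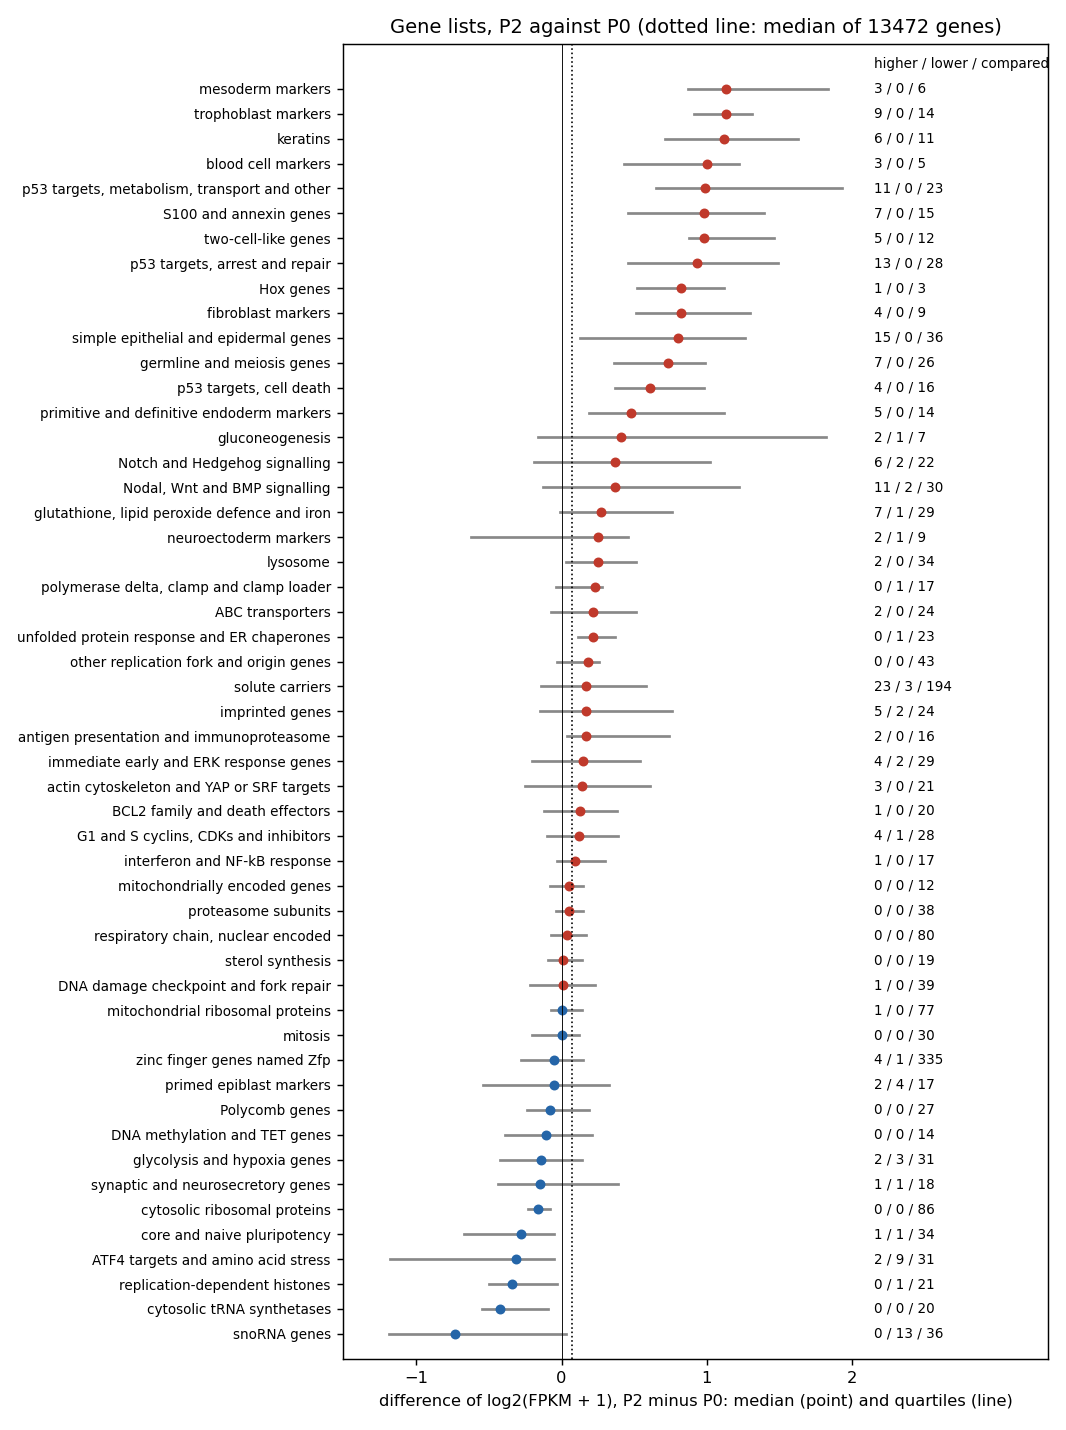
Median (point) and quartiles (line) of the difference of log2(FPKM + 1), P2 minus P0, over the compared members of each of 51 gene lists, with the numbers higher, lower and compared at the right; the dotted line is the median of all 13472 genes, 0.07. Members that entered through P2 only moved list medians in either direction. The epithelial median was 0.57 without them and 0.80 with them, and the two-cell-like median was 1.31 without them and 0.98 with them. The 3 p53 lists lie to the right with 13, 4 and 11 members higher, and the ATF4 and tRNA synthetase lists to the left with medians of -0.31 and -0.42.

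Over genes with a mean FPKM of at least 1, the median difference of the 20 chromosomes ran from -0.02 to 0.10. Of 8609 adjacent pairs of compared protein-coding genes, 70 (0.813%) had both members higher, 1 had both lower and 3 had opposite directions. The pair with both lower was Zic5 and Zic2. The pair with both higher and the largest smaller difference was Fbp2 and Fbp1. Next came Ltb4r2 and Ltb4r1, overlapping leukotriene receptor genes whose reads could be shared, at 2.10, 12.7 and 19.4 FPKM and 1.08, 8.94 and 11.4 FPKM. The epidermal genes Sbsn, Dmkn and Krtdap lie in a row on chromosome 7, and Dmkn measured 0.267, 4.40 and 4.51 FPKM. Krt13 and Krt15 are neighbours on chromosome 11, with Krt15 at 0.180, 2.55 and 3.44 FPKM.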

How the data were processed

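RNA was sequenced from 1 library each of passages P0, P1 and P2, grouped by their labels. The deposited table gives FPKM per gene, made by the authors. TopHat2 2.0.9, Bowtie2 2.0.6 and the mm9 build are named in the submitters' processing notes. For the counting tool, gene annotation, strand setting and RNA selection, the labels give nothing. A symbol was matched to 49412 of the 50043 IDs, and 372 IDs are the authors' own models.

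FPKM values of a library are whole multiples of what 1 read is worth, so library totals and whole reads were recovered, to a relative tolerance of 1e-09, for 26291 of 26291 IDs above 0. The reads of a gene are fixed only up to a common factor, set here from GENCODE M21 mean transcript lengths. The recovered length lay within 1 base of that mean for 83.7% of IDs. For other IDs the printed reads and intervals could be off by that factor. Recovered reads summed to 100.53%, 100.51% and 100.52% of the totals at P0, P1 and P2. The ratio of FPKM between P2 and P0 has an exact conditional Clopper-Pearson 95% interval on these reads. The labels mention no molecular identifiers, so reads may be copies of 1 molecule, and intervals cover counting error only. The labels do not say that the passages are separate cultures, and no count model was fitted because each passage has 1 library. Genes at FPKM 1 or more in P0, P2 or both were compared on log2(FPKM + 1), and called at a difference of at least 1.

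Values were computed in Python 3.11.15 with pandas 2.3.3, scipy 1.17.1 and numpy 2.4.6 and drawn with matplotlib 3.10.9, and the code was tested on simulated data. The genes compared and the 51 gene lists were chosen with earlier results of these data known. Named were Pold3, Fbp1 and Chac1, the polymerase delta list, Pou5f1, Nanog, Sox2, Trp53, Cdkn1a and Mdm2. Also named were the 25 largest rises and falls among genes that reached FPKM 5 at P0 or P2, and the 10 largest gains and losses in FPKM. Gm and Rik names, short RNA genes and models without a symbol were left out of these. From each list the 4 members that differed most, and the 5 leading neighbour pairs in each direction, complete the rule. All other genes named, such as Atf4, Trib3, Nupr1, Aldh18a1, Asns, Bax, Bbc3, Ephx1, Esrrb, Lifr, Gli2, Id1, Wnt4, Wnt7b, Krt8, Cdkn2a and the solute carriers that fell, were chosen after their values were seen. Alternatives were another pseudocount, floor, scaling, gene set and call rule. Promoter windows came from RefSeq on GRCm38.p6, while the files use mm9.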

Additional observations from a re-analysis of the deposited data

How the results depend on the processing

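The number of higher genes, 905, was 1569 with a pseudocount of 0.1, 512 with a floor of FPKM 5 and 1650 when a ratio of 2 in FPKM was the call. The number of lower genes, 156, was 286, 87 and 323 under the same 3 changes, 253 under quantile normalization and 88 without short RNA genes and the authors' own models. The share of changed genes that are higher, 85.3%, was 80% under median-of-ratios scaling, 71.1% under quantile normalization and 90.6% without short RNA genes and the authors' models. The median of all genes, 0.07, turned to -0.03 under median-of-ratios scaling and -0.05 under quantile normalization. Of the 905 higher genes 780 were also higher under median-of-ratios scaling and 623 under quantile normalization. All 156 lower genes were also lower under both. Both scalings shifted the median of all genes down (-0.10 and -0.11), which moves falls away from the threshold. Keeping their call under both is therefore no measure of how firm the falls are. Among 141 called genes of the naming rule, 10 lost their call under 1 or more alternatives (Bad, Ccn1, Fbxo15, Ifi35, Mrps6, Pfkfb4, Plat, Spi1, Tnfrsf10b and Zfp750) and 0 changed direction. Most of the 141 were named for their large differences in these same data. That they kept their call and direction is therefore no guide to the other called genes. Of 355 list medians computed under alternatives, 0 changed direction where the median was at least 0.1 in size. In size, 18 list medians moved beyond a set margin, as did 74 of 816 counts of list members. No paired analysis was possible because each passage has 1 library. Short RNA genes rested on a median of 5 or fewer reads, and 109 of 156 falls had a counting interval that excluded a ratio of 1.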

Other observations

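Genes without an established name also changed, and those given here were chosen after their values were seen. By difference in log2(FPKM + 1), the largest rise among all genes compared belonged to Gm32585, a long noncoding RNA gene on chromosome 5. It measured 1.86, 20.2 and 32.1 FPKM in the P0, P1 and P2 libraries. Its ratio between P2 and P0 was 17.3 (interval 12.1 to 25.3). Other noncoding genes that started low and rose were Gm43549, at 0.356, 5.97 and 6.54 FPKM, and Gm48362, at 0.591, 6.67 and 7.73 FPKM. The protein-coding gene 1700007K13Rik was far more abundant, at 35.8, 171 and 228 FPKM (6.36-fold, interval 5.81 to 6.99).

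Other genes followed different courses over the 3 libraries. Calcoco2, which encodes a receptor for selective autophagy, measured 29.1, 48.0 and 124 FPKM, and Il34, a ligand of the macrophage growth factor receptor, 1.16, 3.82 and 10.9 FPKM. Meg3, an imprinted noncoding RNA gene, measured 23.7, 38.8 and 10.1 FPKM, so that P1 was the highest library and P2 the lowest. Grb10, an imprinted growth inhibitor gene, was lower in each later library at 243, 154 and 109.8 FPKM. Mylk3, the cardiac myosin kinase gene, measured 0.0873, 2.10 and 4.70 FPKM from 4, 75 and 208 reads.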
